A study of Caenorhabditis elegans with 79 samples.

Results

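Argonaute proteins bind small RNAs and use them as guides, and in Caenorhabditis elegans the genes that encode them are themselves targets of small RNAs. The 10 Argonaute genes described here were alg-1, alg-2, alg-3, alg-4, ergo-1, rde-1, csr-1, prg-1, hrde-1 and wago-1. They were found by name among the target genes of 22G-RNA and 26G-RNA rows in 5 tables of small RNA levels. A total of 63 rows carried one of these names, out of 79213 rows in the 5 tables. L4 larvae, adults and GFP::RDE-1 libraries each held 19 such rows, the GFP::ALG-3 table held 6, and the GFP::ERGO-1 table held 0 of its 123. The 26G-RNA rows of the GFP::ERGO-1 table therefore gave no value for any of the 10 genes.

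26G-RNAs are primary small RNAs of worms, made from messenger RNA by the polymerase RRF-3 and the nuclease Dicer, and bound in the sperm-producing germline by ALG-3 and ALG-4 and in oocytes and embryos by ERGO-1. RDE-4 is a protein that binds double-stranded RNA and works with Dicer. 22G-RNAs are secondary small RNAs that RNA-dependent RNA polymerases make on a targeted transcript, and they are bound by CSR-1 and by the worm-specific Argonautes (WAGOs), which include WAGO-1 and HRDE-1. Of the other members, ALG-1 and ALG-2 bind microRNAs, PRG-1 binds piRNAs, and RDE-1 binds primary siRNAs cut from double-stranded RNA.

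All samples came from whole animals grown at 20 °C. L4 larvae were taken at 54 h without RNAi from N2, the wild-type strain, and from rde-4(syb6665) mutants, with 3 libraries each. Gravid adult hermaphrodites were taken at 72 h from N2, rde-1(ne300) and rde-4(syb6665) animals, again with 3 libraries each. Every adult library, the N2 controls included, came from animals fed double-stranded RNA against nrfl-1 and oma-1. GFP::RDE-1 animals, with the tag in the rde-1 gene (cmp133), received the same feeding and gave 2 inputs (lysates) and 2 co-immunoprecipitates (co-IPs) with wild-type rde-4, and as many with rde-4(syb6665). GFP::ALG-3 larvae, tagged in the alg-3 gene (tor141), had the same layout at the L4 stage without RNAi. The labels give treatment with RppH, an enzyme that makes triphosphorylated 22G-RNAs clonable, for the L4, adult and GFP::RDE-1 libraries, and none for GFP::ALG-3. Since the labels do not say that replicates were separate cultures, p-values measure only the spread between these libraries. Where libraries of different groups are said below not to overlap, the share of all rows without overlap is not given. Such statements describe the values and do not set the members apart from other genes.

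Depth inferred from the piRNA rows lay between 12.8 and 22.9 M reads in the 23 RppH-treated libraries, so that 3 reads, taken as the floor, were worth 0.131 to 0.234 RPM, the deposited level scaled by library size. The intervals and floors cover counting error only. The depth of the GFP::ALG-3 libraries is unknown. Stage labels were compared with summed microRNAs: the embryonic mir-35 to mir-42 family stood at 1283 to 1421 RPM in the N2 larvae and at 28700 to 30915 RPM in the N2 adults. The same sum was lower in rde-4 mutants, at 961 to 1099 RPM in larvae and 13838 to 14440 RPM in adults, and its part in the results below was not tested. ALG class 26G-RNAs together held 8667 to 9224 RPM in N2 larvae and 41.4 to 50.15 RPM in N2 adults. ERGO class 26G-RNAs held 221 to 246 RPM and 569 to 590 RPM. The sum of let-7, mir-48, mir-84 and mir-241, read as microRNAs of late larvae and adults, was lower in adults. It stood at 49297 to 49930 RPM in N2 larvae and 12714 to 14377 RPM in N2 adults. The microRNA lin-4 was lower there too, at 2861 to 3122 RPM and 538 to 734 RPM. In whole animals, fewer germ cells of a type and less small RNA per cell cannot be told apart.

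Each of the 10 genes had a 22G-RNA row in the larval and adult tables, with 13 rows in each, some of them near 0. The tables place alg-1 in the WAGO class, alg-2, rde-1 and ergo-1 in the CSR class, and prg-1, alg-3 and alg-4 among the ALG targets. The genes hrde-1, wago-1 and csr-1 each have a row as ALG target and a row as CSR class with identical values, and each of these genes is counted once here. Only 6 genes had a 26G-RNA row, all of the ALG class: prg-1, alg-3, alg-4, csr-1, hrde-1 and wago-1. In the WBcel235 annotation, csr-1 (WBGene00017641) lies on chromosome IV between 7957267 and 7962157 on the plus strand. That annotation places alg-3 (WBGene00011910) on the same chromosome and strand between 11704246 and 11708264. The minus strand of chromosome III holds alg-4 (WBGene00006449), between 9887209 and 9891424, and hrde-1 (WBGene00007624), between 4172337 and 4176159. On chromosome I, prg-1 (WBGene00004178) lies between 7585329 and 7588367 on the minus strand and wago-1 (WBGene00011061) between 7235384 and 7238792 on the plus strand. All 10 are annotated as protein-coding, and the rows are values per gene without positions along the transcript.

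The piRNA-binding Argonaute gene prg-1 had the highest 22G-RNA level of the group at both stages. In N2 larvae its 3 libraries held 345.7, 337.0 and 329.6 RPM. The nuclear Argonaute gene hrde-1 followed with 78.5, 82.7 and 78.0 RPM, and csr-1, whose protein binds 22G-RNAs of expressed germline genes, with 65.2, 74.4 and 68.5 RPM. These 3 genes stood apart from each other and from all genes below them, since none of their N2 libraries overlapped. Lower in the order came rde-1 at 22.5 ± 1.4 RPM (SD, n = 3) and wago-1 at 19.1 ± 1.4 RPM (SD, n = 3). The larval levels of alg-4, ergo-1 and alg-3 were 11.4 ± 2.1, 9.06 ± 0.77 and 8.66 ± 0.13 RPM (SD, n = 3), and neighbours in that run overlapped. The microRNA Argonaute genes alg-1 and alg-2 were lowest, at 2.45 ± 1.10 and 2.00 ± 0.28 RPM (SD, n = 3), and also overlapped. Per kilobase of the longest annotated transcript, the first 6 places of the larval order were the same, with prg-1 at 127 and hrde-1 at 22.5 RPM per kb, while ergo-1 and alg-3 and also alg-1 and alg-2 exchanged places.

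In N2 adults the genes of the spermatogenic Argonautes, alg-3 and alg-4, had almost no 22G-RNAs. The 3 adult libraries held 0.13, 0.05 and 0.2 RPM for alg-3 and 0, 0 and 0.03 RPM for alg-4. These values were at or below the worth of a few reads, whereas larvae held at least 8.54 RPM of alg-3 and at least 9.04 RPM of alg-4. The stages were normalised in separate tables and differed in RNAi feeding as well as age, so no test was made between them. For prg-1 the adult level, 341.6, 351.6 and 362.9 RPM, was 1.04 times that of larvae. The adult level of hrde-1 was 181.0 ± 2.0 RPM (SD, n = 3), 2.27 times the larval mean, and that of csr-1 was 132.7 ± 3.9 RPM (SD, n = 3), 1.91 times the larval mean. Adults held 50.7 ± 1.7 RPM of rde-1 and 35.4 ± 1.9 RPM of wago-1 (SD, n = 3). The largest adult-to-larva ratios were those of alg-2, at 4.26, ergo-1, at 3.94, and alg-1, at 3.45.

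**Figure D1:**
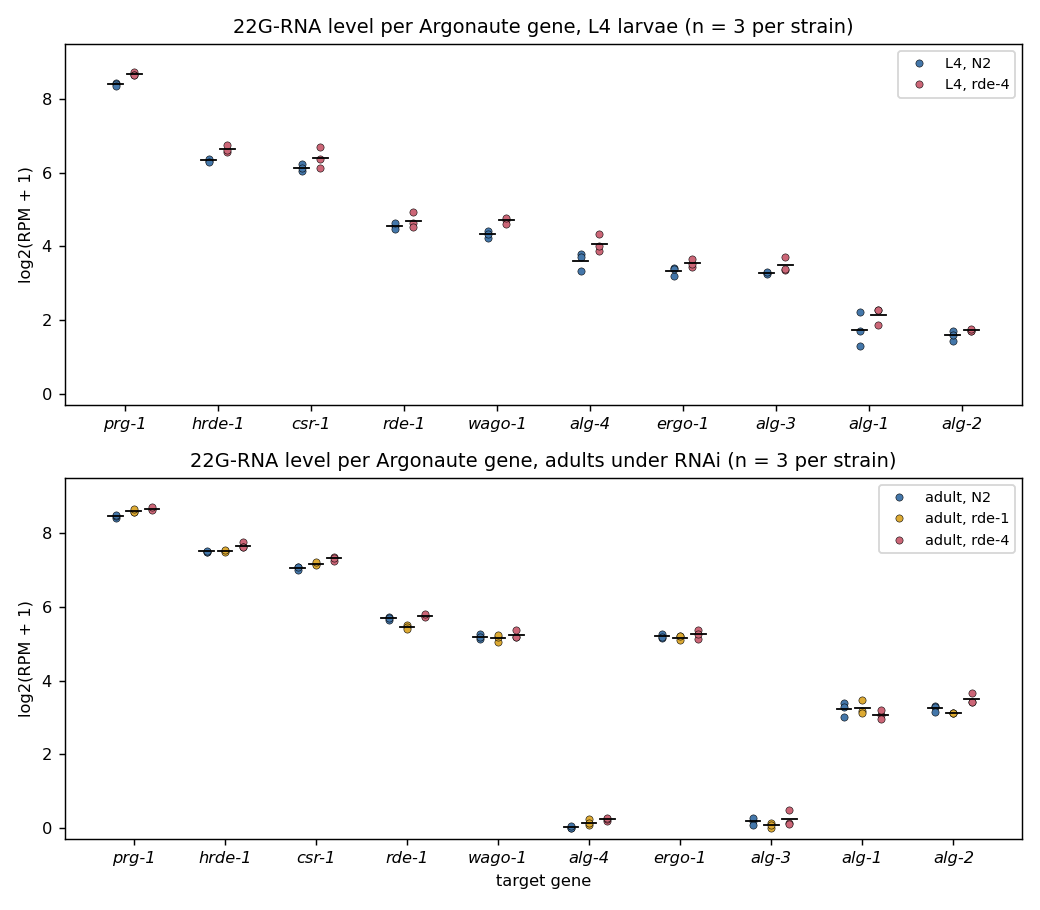
22G-RNA level of each Argonaute gene, as log2(RPM + 1) on the vertical axis, in L4 larvae (top) and in adults under RNAi (bottom); each point is 1 library and each bar the mean of 3. The adult libraries of alg-3 and alg-4 lie near 0, while prg-1 is the highest gene in both panels.

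The order of the genes by 26G-RNA was different. In N2 larvae alg-3, whose protein binds this class, led with 8.61, 6.76 and 7.53 RPM of 26G-RNA. Next came csr-1 with 5.71, 5.83 and 7.32 RPM and alg-4, the paralogue of alg-3, with 5.89, 5.6 and 6.07 RPM. The libraries of neighbours among these 3 genes overlapped. The gene hrde-1 held 5.55, 3.82 and 5.26 RPM, prg-1 1.92, 1.76 and 2.13 RPM, and wago-1 0.37, 0.88 and 0.6 RPM. For each 100 22G-RNA reads there were 88.2 reads of 26G-RNA on alg-3 and 51.5 on alg-4, against 9.06 on csr-1, 6.12 on hrde-1, 3.23 on wago-1 and 0.574 on prg-1. Over all genes with ALG class rows the ratio of the summed levels was 68.6. Adult 26G-RNA of these genes did not exceed 0.5 RPM in any N2 library, and alg-3 and alg-4 were at 0 in all 3, where the floor allows up to 0.151 RPM.

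The first comparison asked which small RNAs of these genes differ in L4 larvae without rde-4. All 6 genes with 26G-RNA had less of it in the rde-4 mutant. The mutant libraries held 0.23, 0.52 and 0.23 RPM of alg-3, 0.23, 0.57 and 0.23 RPM of alg-4, and 0.31, 0.23 and 0.5 RPM of csr-1. For hrde-1 they held 0.05, 0.05 and 0 RPM, all under the floor, and for prg-1 0.31, 0 and 0.23 RPM. No mutant library reached the lowest N2 library of any of the 6, although for wago-1 the gap was only from 0.36 to 0.37 RPM. None of the 6 rows reached the mean of 10 RPM set for the main test, so they were tested without that filter. By limma on log2(RPM + 1), with Benjamini-Hochberg (BH) adjustment over all rows, all 6 were lower at an adjusted p under 0.05, where 9.11% of the 20943 rows were called lower.

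The log2 changes were -2.70 for alg-3 (SE 0.16, adjusted p = 7.1e-07, limma), -2.50 for hrde-1 (SE 0.16, adjusted p = 1.5e-06), -2.43 for csr-1 (SE 0.16, adjusted p = 1.5e-06) and -2.36 for alg-4 (SE 0.16, adjusted p = 1.7e-06). Those of prg-1 and wago-1 were -1.32 (SE 0.14, adjusted p = 7.0e-05, limma) and -0.51 (SE 0.14, adjusted p = 0.041). The median over the 1476 26G-RNA rows with a value was -2.002, and 94.6% of them were called lower. Because 1 RPM was added before taking logs, such changes understate the fall of low rows. As shares of the N2 mean, the mutant kept 4.28% of the 26G-RNA of alg-3, 5.87% of that of alg-4 and 5.51% of that of csr-1, beside 5.35% for all ALG class 26G-RNAs together. The shares of prg-1 and wago-1 were larger, 9.29% and 22.2%, and that of hrde-1, whose mutant libraries all lay under the floor, was 0.684%. The shares of prg-1 and wago-1 rest on a few reads as well. Their mutant libraries held 0.31, 0 and 0.23 RPM of prg-1 and 0.36, 0.05 and 0 RPM of wago-1, so that 1 library gave most of the wago-1 share.

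**Figure D2:**
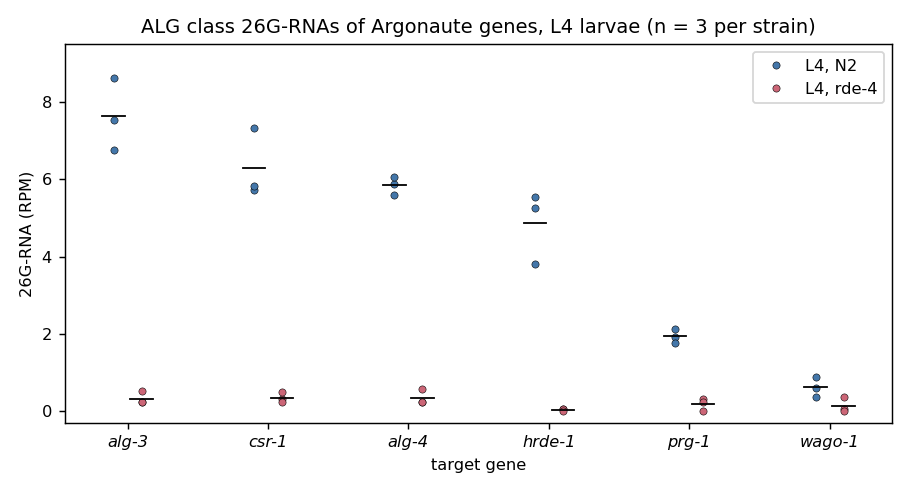
ALG class 26G-RNA level in RPM for the 6 Argonaute genes that have such a row, in N2 and rde-4 larvae; each point is 1 library and each bar the mean of 3. The rde-4 libraries lie at or below 0.57 RPM, while the N2 libraries of alg-3, csr-1 and alg-4 lie between 5.6 and 8.61 RPM.

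22G-RNAs of the same genes did not fall with their 26G-RNAs. The mutant larvae held 425.4, 400.8 and 402.2 RPM of prg-1 22G-RNA and 94.0, 96.6 and 107.8 RPM of hrde-1, each library above every N2 library. For wago-1 they held 25.5, 23.4 and 26.5 RPM and for alg-4 13.6, 15.3 and 19.0 RPM, also without overlap with N2. The level of csr-1 was 69.2, 81.2 and 102.2 RPM, overlapping the N2 range, and that of rde-1 was 23.9, 22.3 and 29.6 RPM. Of the 6 genes averaging 10 RPM or more over the table, 4 rose and 0 fell, where 27.8% of all 4482 tested rows were called higher. The log2 changes were 0.28 for prg-1 (SE 0.05, adjusted p = 0.00093, limma with BH adjustment), 0.31 for hrde-1 (SE 0.06, adjusted p = 0.0035), 0.38 for wago-1 (SE 0.09, adjusted p = 0.0066) and 0.46 for alg-4 (SE 0.14, adjusted p = 0.031). The call for alg-4 was lost without N2 replicate 2 (adjusted p = 0.14), rde-4 replicate 2 (0.052) or rde-4 replicate 3 (0.088), and also without the filter (0.069) or at equal totals (0.054).

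The change was 0.26 for csr-1 (SE 0.11, adjusted p = 0.092, limma) and 0.15 for rde-1 (SE 0.10, adjusted p = 0.26), and neither passed. Without rde-4 replicate 1 the change of csr-1 was 0.39 and passed (adjusted p = 0.0090). Over all 22G-RNA rows of the table the median log2 change was 0.16, so part of each rise is shared with the table as a whole. After scaling to an equal median ratio none of the 6 genes passed by limma, with log2 changes of 0.11 for prg-1, 0.15 for hrde-1, 0.22 for wago-1 and 0.30 for alg-4. Unadjusted, 5 of the 6 genes had a p under 0.05 by limma before that scaling, as had 2189 of all 4482 tested rows. The 4 genes under the filter were tested without it, and alg-3 (log2 change 0.21), ergo-1 (0.22), alg-1 (0.40) and alg-2 (0.14) did not pass.

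In adults the question was how 22G-RNAs of these genes differ without the Argonaute RDE-1 and without RDE-4. The gene rde-1 itself had less 22G-RNA in rde-1(ne300) animals, at 44.9, 42.6 and 41.3 RPM against 48.8, 52.0 and 51.2 RPM in N2, with no overlap. The change was -0.23 (SE 0.05, adjusted p = 0.0057, limma with BH adjustment), and it kept its call when any one library was left out. In rde-4 adults rde-1 held 52.8, 52.0 and 54.8 RPM, a change of 0.07 against N2 (SE 0.05, adjusted p = 0.25). Against rde-1 mutants the rde-4 level was higher by 0.30 (SE 0.05, adjusted p = 0.00067), in 3 of 3 libraries. The level of a gene's 22G-RNAs is not the level of its messenger RNA or protein, so these values do not check the rde-1 label.

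Of the 6 genes tested between rde-1 mutants and N2, rde-1 fell and prg-1 rose, where 15.5% of the 5450 rows were called in either direction. The prg-1 level was 379.1, 382.9 and 403.8 RPM in rde-1 mutants, a change of 0.14 (SE 0.04, adjusted p = 0.031, limma). That call for prg-1 was lost without N2 replicate 1 or 2 or rde-1 replicate 2 or 3, with adjusted p from 0.067 to 0.12. Without the filter or without the mean-variance trend prg-1 did not pass either. The changes of hrde-1, wago-1, csr-1 and ergo-1 lay between -0.03 and 0.11 and did not pass. Scaled to equal 22G-RNA totals, csr-1 passed as well (adjusted p = 0.027, limma), as it did with the replicate number as a block.

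Between rde-4 and N2 adults, prg-1, hrde-1 and csr-1 rose and 0 of the 6 fell, where 28.0% of the rows were called higher. The csr-1 libraries held 162.9, 152.3 and 161.2 RPM in the mutant against 134.3, 128.3 and 135.6 RPM in N2, a change of 0.26 (SE 0.04, adjusted p = 0.00086, limma with BH adjustment). For prg-1 the mutant held 400.4, 396.5 and 422.0 RPM and the change was 0.21 (SE 0.04, adjusted p = 0.0033). For hrde-1 it held 214.9, 195.2 and 197.0 RPM and the change was 0.16 (SE 0.04, adjusted p = 0.013). None of these 3 genes overlapped with N2, and the share of all rows without overlap is not given here. The values of rde-1, wago-1 and ergo-1 were 0.07, 0.06 and 0.06, with no call. The microRNA Argonaute gene alg-2 lay under the mean of 10 RPM set for testing and held 9.68, 9.7 and 11.8 RPM in the mutant against 8.91, 8.79 and 7.79 RPM in N2, without overlap. Without that filter it did not pass (0.26, adjusted p = 0.16). The row of alg-4, at 0.14, 0.17 and 0.2 RPM in the mutant against 0, 0 and 0.03 RPM in N2, did pass without it (0.21, SE 0.05, adjusted p = 0.025, limma), where 4.78% of 20002 rows were called higher, although all these values are near the 3-read floor. The median over all 22G-RNA rows was 0.13, and under scaling to an equal median ratio csr-1 was still called (log2 change 0.15, adjusted p = 0.018) while prg-1 and hrde-1 were not (adjusted p = 0.13 and 0.46).

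Set against each other, rde-4 adults had more 22G-RNA than rde-1 adults on rde-1, hrde-1 and csr-1, where 22.3% of rows were called higher. The changes of hrde-1 and csr-1 were both 0.15 (SE 0.04 for each, adjusted p = 0.018 for each, limma). The median over all 22G-RNA rows was 0.11. Both calls were lost at equal 22G-RNA totals (adjusted p = 0.085 for hrde-1 and 0.12 for csr-1) and at an equal median ratio (0.05 for each, adjusted p = 0.41 and 0.39), and that of hrde-1 also without the filter (0.0501). Without the filter alg-2 passed (0.39, SE 0.09, adjusted p = 0.032), at 7.65, 7.62 and 7.72 RPM in rde-1 mutants, where 4.51% of rows were called higher. That call of alg-2 was lost at equal 22G-RNA totals, at an equal median ratio and with the replicate number as a block. It was also lost without rde-1 replicate 1, 2 or 3 or rde-4 replicate 3, and adjusted p by limma reached 0.11 over these alternatives. Without rde-1 replicate 2 both calls of hrde-1 and csr-1 were lost, with adjusted p = 0.070 for each. The call of csr-1 was also lost without rde-1 replicate 1 or rde-4 replicate 1 or 3, with adjusted p of 0.055, 0.051 and 0.057. The adult comparisons share their libraries and are not independent of each other. Adult 26G-RNAs of the 6 genes did not exceed 0.72 RPM in any library, groups overlapped for all 6, and none was called without the filter in any of the 3 comparisons.

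**Figure D3:**
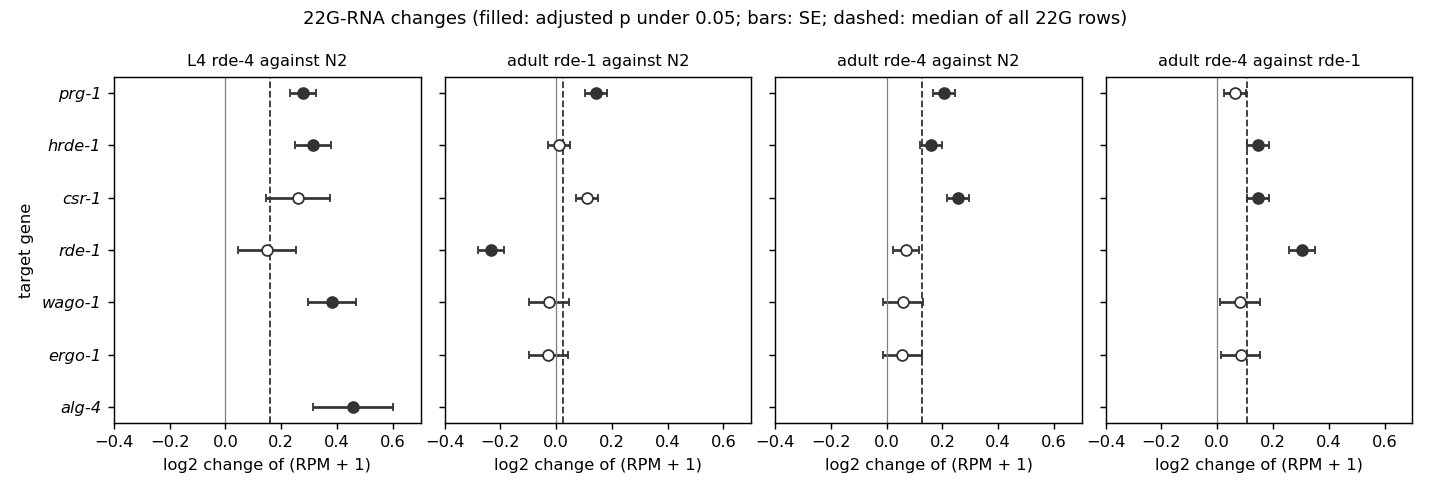
Change of 22G-RNA level on the log2(RPM + 1) scale (horizontal axis, bars SE) for each Argonaute gene averaging 10 RPM or more, in 4 comparisons; filled points passed an adjusted p under 0.05 and dashed lines mark the median of all 22G-RNA rows. The point of rde-1 lies at -0.23 in rde-1 mutants against N2, away from the other 5 genes.

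Other genes of the small RNA machinery were read from lists of names. Of 29 other Argonaute names 10 had a row, and of 57 names of small RNA pathway genes 32 had one. In rde-4 larvae 5 of the 7 other Argonautes tested and 11 of the 25 pathway genes tested had more 22G-RNA, and 0 had less, where 29.0% of all 22G-RNA rows were called higher. The median log2 change was 0.30 for the first list and 0.21 for the second, beside 0.16 for all 22G-RNA rows. In rde-4 adults 2 of 7 and 12 of 30 were higher than in N2 and 0 lower, where 31.2% of all 22G-RNA rows were called higher, and the medians were 0.11 and 0.11 beside 0.13. Genes that passed at both stages included mut-16, which encodes a scaffold of the foci where 22G-RNAs are amplified (0.24 in larvae, 0.22 in adults), and ego-1, an RNA-dependent RNA polymerase gene (0.27 and 0.20). They also included znfx-1, a helicase gene of germ granules (0.36 and 0.19), rrf-3, the 26G-RNA polymerase gene (0.28 and 0.16), mut-14 (0.37 and 0.16) and nyn-1 (0.21 and 0.15). From the Argonaute list sago-2 (0.43 and 0.14) and ppw-2 (0.43 and 0.13) passed at both stages.

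The genes whose 22G-RNA pattern was most like that of each member were looked up over the 23 RppH-treated libraries, among 4038 genes, by Pearson's r of log2(RPM + 1). The stages, the fractions and the depth of these libraries are shared by all genes, so r was high throughout and is a description. Nearest to prg-1 were chk-2 (r = 0.998), pid-2 and morc-1, and nearest to csr-1 were vbh-1 (r = 0.997), cbd-1 and dhc-1. Nearest to hrde-1 were let-99 (listed as K08E7.3), dpy-21 and ZK652.6, and nearest to wago-1 were toe-2 (C56E6.3), pole-1 (F33H2.5) and jmjd-2. Nearest to rde-1 were cogc-4 (r = 0.992), swsn-4 and hinf-1, and nearest to ergo-1 were ndc-80 (r = 0.994), apn-1 and cye-1.

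Co-IPs of GFP::RDE-1 from adults on nrfl-1 and oma-1 RNAi were compared with their inputs to see which small RNAs the protein carries. 22G-RNAs of the Argonaute genes were depleted, as 22G-RNAs were in general. With wild-type rde-4 the csr-1 level was 125.4 and 118.5 RPM in inputs and 20.9 and 16.6 RPM in co-IPs. For prg-1 inputs held 339.0 and 318.6 RPM and co-IPs 77.0 and 60.6 RPM, and for rde-1, the gene of the tagged protein, 33.4 and 35.9 RPM against 8.22 and 8.11 RPM. All 6 tested genes were lower in the co-IP, with log2 changes from -2.65 for csr-1 to -1.96 for rde-1, where 95.1% of all 4372 rows were called lower by limma with BH adjustment. The median over 22G-RNA rows was -2.19, with 4 of the 6 genes below it and rde-1 and ergo-1 above it. In the rde-4 strain all 6 were again lower, from -1.95 for ergo-1 to -1.57 for hrde-1, with 92.5% of rows called lower and a 22G-RNA median of -1.61. These falls hold for levels relative to the whole library: scaled to an equal median ratio, 0 of the 6 genes passed in either strain by limma, and the sign turned for prg-1 (0.02), rde-1 (0.20) and ergo-1 (0.11) with wild-type rde-4 and for prg-1 (0.07) and hrde-1 (0.09) in the mutant.

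The difference of co-IP enrichment between rde-4 and wild type lay between 0.07 and 0.81 for the 6 genes. The median over all 22G-RNA rows was 0.57, with rde-1 (0.14) and ergo-1 (0.07) below it and the other genes above it. By limma 0 of the 6 passed, where 3.29% of rows were called in either direction. At an unadjusted p under 0.05 there were 2 of the 6 genes and 661 of all 4372 rows. The rde-4 co-IP replicates differed in level, with 136.9 and 79.8 RPM for prg-1 and 14.03 and 5.33 RPM for ergo-1. Without rde-4 co-IP replicate 2, which left that group without a replicate, the differences ran from 0.58 for rde-1 to 1.18 for csr-1. Whether all rows shifted likewise in that fit is not given here. Inputs of the strains gave 0 calls among the 6 genes by limma, where 4.87% of rows were called. At an unadjusted p under 0.05 there were 0 of the 6 genes and 359 of all 4372 rows. The input changes of the 6 genes lay between -0.26 and 0.24. 26G-RNAs of the members were at or under 0.29 RPM in every GFP::RDE-1 library. Without the filter the 26G-RNA row of prg-1, at 0.16 and 0.1 RPM in mutant co-IPs and 0 in both mutant inputs, was called higher (0.18, SE 0.05, adjusted p = 0.039, limma), where 0.853% of 20283 rows were, and these values lie under the 3-read floor of their libraries.

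Co-IPs of GFP::ALG-3 from L4 larvae carried 26G-RNAs of all 6 genes, in rows named 26G-as whose read lengths are not stated. In the wild-type rde-4 background, csr-1 had 151.3 and 150.03 RPM in co-IPs against 23.8 and 28.4 RPM in inputs, and hrde-1 had 144.6 and 151.2 RPM against 26.2 and 33.4 RPM. The prg-1 level was 67.0 and 92.5 RPM against 30.5 and 31.4 RPM, and that of alg-4 50.7 and 49.3 RPM against 9.68 and 8.96 RPM. The row of alg-3, the gene that carries the tag, held 10.5 and 12.3 RPM against 1.77 and 2.84 RPM, and wago-1 held 8.37 and 10.3 RPM against 2.92 and 3.74 RPM. Every co-IP library was above every input library for each gene.

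At an average of 10 RPM or more over the table, 4 genes were tested and all 4 were enriched, where 99.5% of the 1101 tested rows were called higher. The log2 enrichment was 2.49 for csr-1 (SE 0.17, adjusted p = 1.2e-09, limma with BH adjustment), 2.31 for alg-4 (SE 0.30, adjusted p = 1.6e-06), 2.28 for hrde-1 (SE 0.18, adjusted p = 6.1e-09) and 1.32 for prg-1 (SE 0.21, adjusted p = 2.1e-05). All 4 lay below the median of the class, 2.96, and prg-1 was at percentile 1.82 of the tested rows. Without the filter alg-3 was also enriched, by 1.92 (SE 0.35, adjusted p = 0.00014, limma), where 98.0% of 1384 rows were called higher. In the same fit wago-1 was enriched by 1.25 (adjusted p = 0.022), a call lost under 4 alternatives, among them a pseudocount of 0.1. Relative to the median row of the co-IP, that is after scaling to an equal median ratio, all 4 tested genes had negative values, from -0.56 for csr-1 to -1.72 for prg-1.

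**Figure D4:**
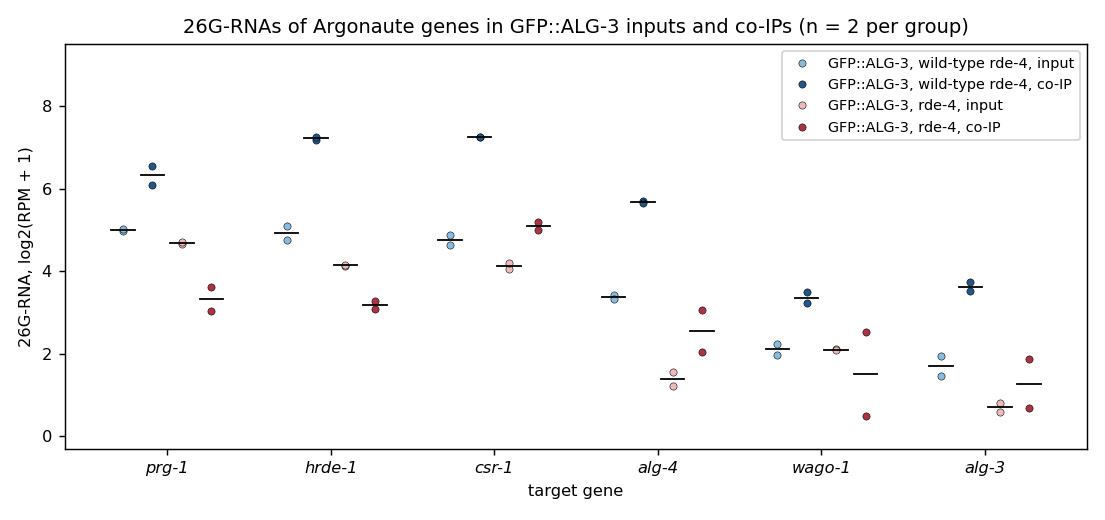
26G-RNA level of 6 Argonaute genes, as log2(RPM + 1), in inputs and co-IPs of GFP::ALG-3 larvae with wild-type or mutant rde-4; each point is 1 library and each bar the mean of 2. With mutant rde-4 the co-IPs of prg-1 and hrde-1 lie below their inputs, at 7.24 to 11.3 RPM against 16.6 to 25.02 RPM.

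In rde-4 mutants the members moved apart from each other in the co-IP. The csr-1 level was still higher in co-IPs, at 30.9 and 35.6 RPM against 15.5 and 17.3 RPM in inputs, and so was that of alg-4, at 3.1 and 7.29 RPM against 1.33 and 1.96 RPM. For hrde-1 the co-IPs held 7.49 and 8.65 RPM against 16.6 and 16.7 RPM in inputs, and for prg-1 7.24 and 11.3 RPM against 24.3 and 25.02 RPM. The enrichment was 1.15 for alg-4 (SE 0.30, adjusted p = 0.0020, limma) and 0.98 for csr-1 (SE 0.17, adjusted p = 6.1e-05), where 87.4% of rows were called higher. It was -1.35 for prg-1 (SE 0.21, adjusted p = 3.0e-05) and -0.96 for hrde-1 (SE 0.18, adjusted p = 0.00014), where 2.45% of rows, 27 in all, were called lower. Both values depend on the mutant inputs. The untagged rde-4 larvae held at most 0.31 RPM of prg-1 26G-RNA and 0.05 RPM of hrde-1. Whether the mutant inputs hold only 26G-RNA is not stated, and its part in these signs was not tested. The median of the class was 1.59, and scaled to an equal median ratio alg-4 and csr-1 turned to -0.70 and -1.26. The wago-1 row held 4.78 and 0.42 RPM in the 2 mutant co-IPs, which differ too much to place it, and alg-3 held 0.6 and 2.68 RPM.

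The difference of enrichment between rde-4 and wild type was tested directly. It was -3.24 for hrde-1 (SE 0.25, adjusted p = 2.7e-06, limma with BH adjustment), -2.67 for prg-1 (SE 0.30, adjusted p = 1.1e-05), -1.51 for csr-1 (SE 0.24, adjusted p = 0.00010) and -1.16 for alg-4 (SE 0.42, adjusted p = 0.021). All 4 were lower, where 82.3% of rows were called lower and the median of the class was -1.35. Without the filter alg-3 (-1.34, adjusted p = 0.026, limma) and wago-1 (-1.83, adjusted p = 0.025) were lower as well, where 80.3% of 1384 rows were. Each of these calls was lost under 7 alternatives. The alg-4 call was lost with a pseudocount of 0.1, after scaling to an equal median ratio (log2 difference -0.05) and without either wild-type input (adjusted p = 0.052 and 0.059), rde-4 co-IP replicate 1 (0.059) or rde-4 input replicate 2 (0.092). The values of hrde-1 stood at percentile 1.27 of the class and those of prg-1 at 5.63, while csr-1 and alg-4 lay near its middle.

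**Figure D5:**
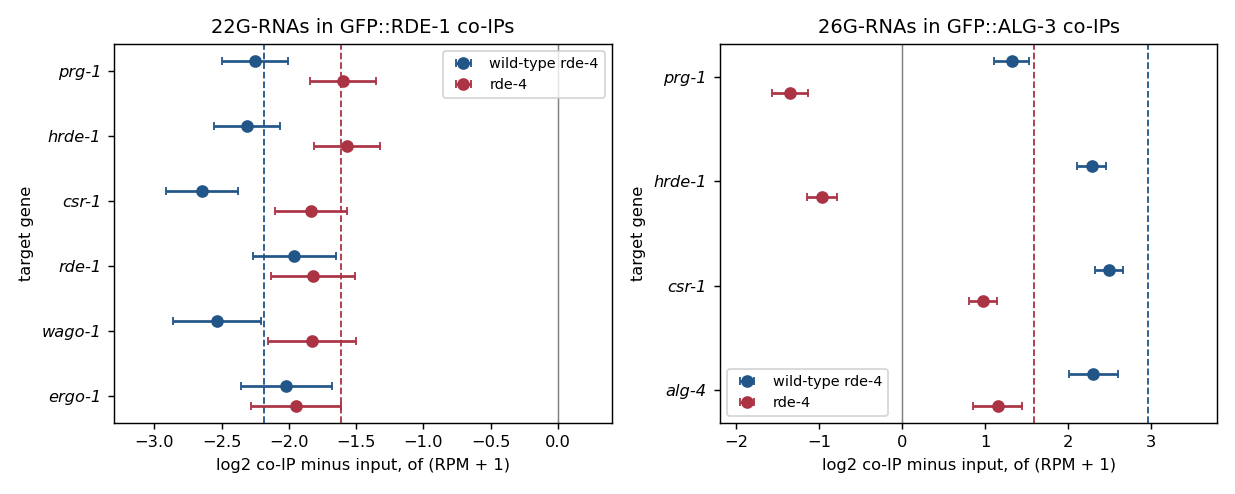
Log2 difference of co-IP and input levels (horizontal axis, bars SE) for 22G-RNAs in GFP::RDE-1 libraries (left) and 26G-RNAs in GFP::ALG-3 libraries (right), by rde-4 genotype; dashed lines mark the median of all rows of that kind. The values of prg-1 and hrde-1 with mutant rde-4 lie left of 0 in the right panel, at -1.35 and -0.96.

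Inputs of the GFP::ALG-3 strains were compared in the same way. The rows of this table are named 26G-as, and the sources used here do not say which read lengths they hold. The level in mutant inputs was 79.7% of the wild-type input mean for prg-1, 62.8% for csr-1, 55.8% for hrde-1, 27.3% for alg-3 and 17.7% for alg-4, beside 15.3% for all rows together. In wago-1 mutant inputs held 3.32 and 3.24 RPM against 2.92 and 3.74 RPM in wild type. By limma, alg-4 (-1.97, SE 0.30, adjusted p = 1.2e-05), hrde-1 (-0.79, SE 0.18, adjusted p = 0.00057) and csr-1 (-0.64, SE 0.17, adjusted p = 0.0019) were lower, where 97.5% of rows were called lower and the median was -2.29. The value of prg-1, -0.32 (SE 0.21, adjusted p = 0.16), did not pass. Without the filter alg-3 was lower (-1.01, adjusted p = 0.016, limma), where 91.7% of 1384 rows were, and wago-1 did not pass (-0.01, adjusted p = 0.99). The alg-3 call was lost under 3 alternatives, among them a pseudocount of 10. Scaled to an equal median ratio, the signs of all 6 genes turned, from 0.50 for alg-4 to 2.90 for wago-1. Relative to the median row, each thus had a higher mean in the mutant inputs. Under that scaling alg-4 (adjusted p = 0.28, limma) and alg-3 (1.06, adjusted p = 0.14, limma) did not pass.

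The wild-type inputs also differed in composition from the larvae of the L4 table. The mean 26G-RNA level in those inputs was 16.0 times that in N2 larvae for prg-1, 6.11 times for hrde-1, 5.40 times for wago-1, 4.15 times for csr-1 and 1.59 times for alg-4, but 0.302 times for alg-3. Within a library, alg-3 held 1.21 to 1.46 times the 26G-RNA of alg-4 in N2 larvae and 0.183 to 0.317 times in the wild-type GFP::ALG-3 inputs. The tables were normalised separately, differ in RppH treatment by the labels, and name the class differently (26G in one, 26G-as in the other). The part of these differences, and of the tag in the alg-3 gene, was not tested.

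In the rde-4 mutant inputs of GFP::ALG-3 the 6 genes took the order prg-1, hrde-1, csr-1, wago-1, alg-4, alg-3, which is their order by 22G-RNA in N2 larvae and not their order by 26G-RNA there. Spearman's rho was taken over the 1385 genes with a row in both tables. The level in those mutant inputs had a rho of 0.63 with the 22G-RNA level of N2 larvae and 0.39 with their 26G-RNA level. With rde-4 larvae, the matching genotype, the values were closer, at 0.62 for 22G-RNA and 0.51 for 26G-RNA. For the wild-type inputs the values with N2 larvae were 0.30 for 22G-RNA and 0.88 for 26G-RNA. These correlations run across genes, which are not independent replicates, within the same libraries. This comparison was chosen after its values were seen.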

How the data were processed

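The authors made their levels with the tinyRNA pipeline, per the series' design text. The deposited values behave as RPM (reads scaled by library size), which no label states, and versions, settings, annotation and genome build are not given in the sources used here. Libraries were grouped by their labels, 39 of them in 5 tables, and 0 value columns were left unassigned. The GFP::ERGO-1 table has columns for 8 of 12 labelled libraries. Rows averaging 10 RPM or more over a table entered limma 3.58.1 (R 4.3.3) on log2(RPM + 1), with a mean-variance trend, all groups of a table in 1 fit and BH adjustment over all tested rows. Lower rows were tested without the filter. The fit was tested on simulated data, in which a minority of rows changed, in both directions, and the depth of GFP::ALG-3 was assumed. That run therefore does not cover the co-IP comparisons, where most rows shift one way. Whole reads were not recovered, since only 62.5% to 81.2% of low 22G-RNA and 26G-RNA values were whole multiples of the piRNA step, within 0.0055 RPM, so no count test was run. Depth and the 3-read floor come from that step. Transcript lengths and positions come from the WBcel235 annotation, matched by gene identifier for 10 of 10 genes; sequences were not used here. The members, lists and tests were chosen with earlier results of these data known. Named genes were all member rows, the 3 most alike genes for members of at least 10 RPM in adults, and at most 8 list genes that passed at both stages, by adult change. Alternatives were other pseudocounts, filters, scalings, no trend, leaving out each library, a replicate block and, added after seeing the data, a crossed block and identical rows counted once.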

Additional observations from a re-analysis of the deposited data

Results flagged for a closer look

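In the GFP::ALG-3 table the co-IP enrichment of all 4 genes averaging 10 RPM or more differed between the rde-4 mutant and wild type. The difference itself was tested in limma. The difference was -3.24 for hrde-1, -2.67 for prg-1, -1.51 for csr-1 and -1.16 for alg-4 on the log2 scale. Of all rows tested, 82.3% were called lower and the median was -1.35, so csr-1 and alg-4 lay near the general value, and the alg-4 call was lost under 6 alternatives. For hrde-1 and prg-1 the enrichment in wild type and its value in the mutant had opposite signs, in 2 of 2 co-IP libraries of each strain. The mutant signs rest on mutant inputs that held 16.6 RPM of hrde-1 and 24.6 RPM of prg-1. In rde-4 larvae without the tag, normalised separately, the 26G-RNA means were 0.033 and 0.18 RPM. Which read lengths the 26G-as rows of these inputs hold is not stated, and their part in the signs was not tested. After scaling to an equal median ratio the wild-type values were -0.77 for hrde-1 and -1.72 for prg-1, the same sign as in the mutant. The number of samples in a group was at most 3, so no library was screened as standing apart from its group.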

How the results depend on the processing

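Counts here are of member rows that passed, so hrde-1, wago-1 and csr-1, with identical 22G-RNA rows, count once for each row. In larvae 6 rows passed, all 22G-RNA. Without the filter 11 passed, 5 of 22G-RNA (alg-4 lost its call) and 6 of 26G-RNA, with a filter at 1 RPM 11 passed, 6 and 5 of these, and 0 scaled to an equal median ratio; leaving out 1 library gave 5 to 8. For rde-1 against N2 adults 2 passed, 1 without the filter or the trend and 4 at equal 22G-RNA totals; leaving out 1 library gave 1 to 2. For rde-4 against N2 adults 5 passed, 2 at an equal median ratio and 3 with identical rows counted once. For rde-4 against rde-1 adults 5 passed, 1 at equal 22G-RNA totals or an equal median ratio and 3 with identical rows counted once; leaving out 1 library gave 1 to 5. In GFP::RDE-1 co-IPs 9 passed in each strain; at equal 22G-RNA totals 2 passed with wild-type rde-4 and 0 in the mutant, and at an equal median ratio 0 in both. The main fit gave 0 for the difference between these strains and 4 for that in GFP::ALG-3. Neither count held with every library left out in turn, where a group was left without a replicate.

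Signs turned for 25 member values that passed in at least one of the fits compared, all under those scalings, which by construction remove a change shared by most rows. Another 47 values that passed in neither fit also turned, 16 at an equal median ratio, 5 at equal 22G-RNA totals, 25 with 1 library left out and 1 at a pseudocount of 10. At equal 22G-RNA totals rde-1 was 0.11 and ergo-1 0.026 with wild-type rde-4, and alg-1 0.061 in the mutant GFP::RDE-1 co-IP. At an equal median ratio the wild-type values were 0.021 for prg-1, 0.20 for rde-1, 0.11 for ergo-1 and 0.00088 for alg-2, and the mutant values 0.070 for prg-1, 0.091 for hrde-1 and 0.19 for alg-1. In GFP::ALG-3 with wild-type rde-4 they were -1.72 for prg-1, -0.65 for alg-4, -0.77 for hrde-1, -0.56 for csr-1, -1.33 for wago-1 and -0.63 for alg-3. In its mutant co-IP they were -0.70 for alg-4 and -1.26 for csr-1. Between its inputs they were 2.71 for prg-1, 0.50 for alg-4, 2.20 for hrde-1, 2.36 for csr-1, 2.90 for wago-1 and 1.06 for alg-3. Of the other member values 107 lost and 21 gained a call, and the rest kept their side of the threshold.

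Replicate numbers did not pair the larval or adult samples, since no comparison with 3 pairs had every correlation of deviations over 0.1. In the co-IP tables the deviations of both replicates mirror each other, so pairing of a co-IP with its input could not be judged this way. With the replicate number as a block, 8 rows passed in larvae and 4 for rde-1 against N2 adults. Crossing the numbers changed no count. Member rows near the 3-read floor, such as their adult 26G-RNAs at or under 0.72 RPM, rest on a few reads, and their calls without the filter do too.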
